A study of Saccharomyces cerevisiae with 8 samples.

Results

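Among aneuploid strains of Saccharomyces cerevisiae (budding yeast with an abnormal set of chromosomes), 3 strains whose RNA from chromosome XII was raised as a block, A2, A3 and A10, were compared with 4 RNA samples in which it was not, strains A9, A13 and A14 and the wild-type sample WT1. These are 7 of the 8 arrays of the series, and A15, whose chromosome XII was only slightly raised, was left out. The arrays were chosen by the median log2 ratio of chromosome XII genes over the wild-type reference RNA WT2, so the values of chromosome XII genes are given as a description with no test, and test results are given for genes of other chromosomes only. The array carried 6256 genes, 542 of them on chromosome XII (systematic names starting YLL or YLR). Of these 542, 532 passed a filter on signal, 524 had a value on all 7 arrays and 495 were well above background in both colours on all 7.

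Each array set the RNA of 1 sample, labelled with Cy5, against the same WT2 RNA, labelled with Cy3, so a positive log2 ratio means more RNA in the strain than in WT2. All cells grew to mid-log phase. The labels give the strain names and call WT1 and WT2 wild type. No genotype, mating type, ploidy, karyotype or parent strain is given, nor whether the samples were grown as separate cultures. A2 and A3 were by far the most alike of the arrays, with r = 0.888 over all genes against at most 0.482 for any other pair, all pairs sharing the WT2 reference. Whether they are independent strains is not known. Each strain has 1 array and was entered as 1 replicate, so a p-value here measures no more than the spread over these 7 samples.

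Chromosome XII carries the repeated ribosomal RNA genes (rDNA) on its right arm, and its protein-coding genes include ribosomal proteins, ribosome assembly factors and transcription factors. In yeast cells with an extra chromosome, the RNA of most of its genes rises with their copy number, and a gene whose RNA does not follow can be subject to other control. RNA alone was measured here, so the number of copies of chromosome XII in these strains was not.

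The median log2 ratio of the chromosome XII genes was 0.59 on A2, 0.50 on A3 and 0.32 on A10. It was -0.11 on A9, -0.04 on A13, -0.0039 on A14 and -0.01 on WT1, so every array of the first set lay above every array of the second by the way they were chosen. Against a threshold of 0.3, A10 lay just inside at 0.32, and the next array below it was A15 at 0.10. Relative to the median of the chromosomes whose own median was under 0.3 in size on the same array, chromosome XII stood at 1.57-fold on A2, 1.47-fold on A3 and 1.38-fold on A10, and at 0.97- to 1.01-fold on the other 4. The share of its genes above 0 was 92.4% on A2, 91.7% on A3 and 77.8% on A10.

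No other chromosome was raised in all 3 strains, while A2 and A3 shared chromosome II. A2 had chromosome II at a median of 0.66. A3 had chromosome I at 0.67 and chromosome II at 0.73, and in A10 the medians were 0.67 for chromosome III, 0.64 for XI and 0.58 for XV. Within each of these arrays chromosome XII had the lowest median of the raised chromosomes. In the comparison set, A9 had chromosomes II, XIII and XVI past 0.3, A13 chromosome I, A14 chromosomes IX and XVI, and WT1 none. Below that threshold, A13 also had medians of 0.28 for chromosome II, 0.26 for XI, 0.23 for VIII and 0.19 for XIII. The genes of chromosome XII were also more scattered on A10, with an SD of 0.62 over genes against 0.38 on A2 and 0.34 on A3, and the centred ratios of all other genes had an SD of 0.64 on A10 as well.

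Along the chromosome the raised level was even. The 61 measured genes of the left arm had a median difference (mean log2 ratio of A2, A3 and A10 minus mean of A9, A13, A14 and WT1) of 0.55, the 147 genes between the centromere and the rDNA 0.62, and the 287 genes beyond the rDNA 0.58. In 10 blocks of 49 or 50 genes from YLL067C at the left end to YRF1-5 at the right, the median difference lay between 0.53 and 0.65. The plot of running medians in gene order shows this for each array.

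**Figure D1:**
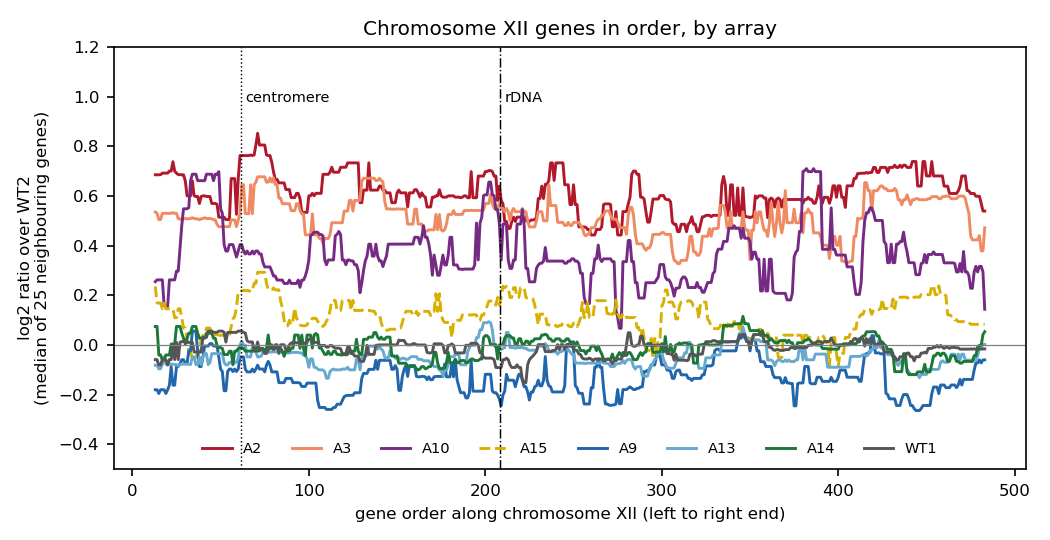
Median log2 ratio over WT2 of 25 neighbouring genes (y axis) against gene order along chromosome XII (x axis), for the genes well above background on all 7 arrays, with 1 line per array and A15 dashed. A2 and A3 stay above all other arrays along most of the chromosome, A10 runs lower and less evenly, and A9, A13, A14 and WT1 stay near or somewhat below 0.

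Gene by gene, the response was broad and mostly of 1 size. Over the 495 measured genes the median difference was 0.59, which is 1.5-fold, and the interquartile range ran from 0.41 to 0.72. A difference between 0.4 and 0.8 was found for 302 genes, 14 reached 1 or more, 60 were under 0.2, and 25 were below 0. Elsewhere, 5187 measured genes had a median difference of -0.04. All 3 arrays lay above all 4 others for 317 of the 524 chromosome XII genes with full values (60.5%), beside 238 of 5549 genes on other chromosomes (4.29%). The reverse order, all 3 below, was found for 1 chromosome XII gene, YLR462W, beside 323 genes elsewhere (5.82%). Because chromosome XII chose the arrays, these shares describe how evenly its genes took part and are no test.

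**Figure D2:**
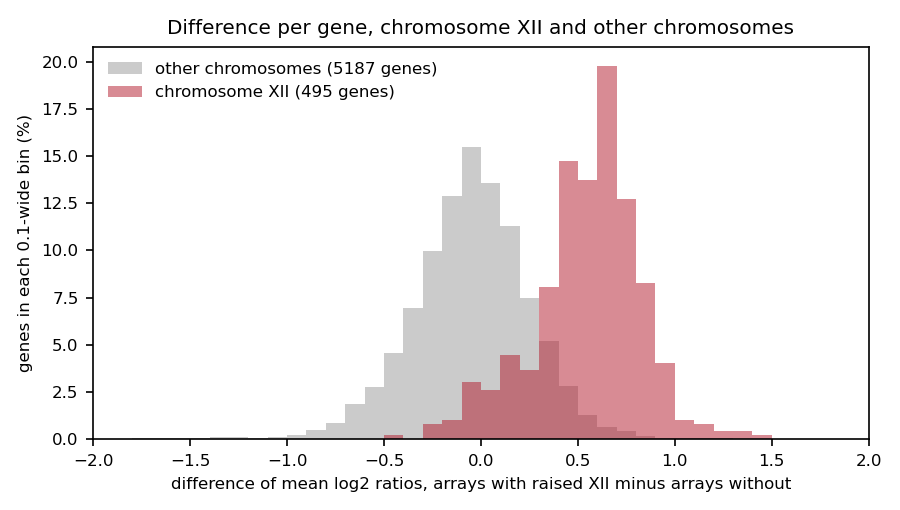
Share of genes (y axis, %) in each 0.1-wide bin of the difference of mean log2 ratios, A2, A3 and A10 minus A9, A13, A14 and WT1 (x axis), for 495 chromosome XII genes (red) and 5187 genes of other chromosomes (grey). The chromosome XII genes centre on 0.59 with a tail down to -0.43, and the other genes centre on -0.04.

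Signal strength bore on the size. In the 99 dimmest measured genes the median difference was 0.37, and in the other 4 groups of 99 by intensity it lay between 0.61 and 0.64. The 29 genes with values on all 7 arrays that were not well above background throughout had a median of 0.08. The background correction adds a constant to both colours, which by construction pulls the ratio of a dim gene towards 0, so a small value of a dim gene does not show that its RNA stayed level.

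Where the sets overlapped, it was often A10 alone that reached the others. Of the 495 measured genes, 311 had no overlap with the 3 above, 1 had the 3 below and 183 overlapped. In 92 of these 183, A2 and A3 both lay above all 4 others and A10 alone did not. Counting A2 and A3 alone, 403 of 495 genes lay above all 4 others, beside 13.5% of genes on other chromosomes. A10 gave the lowest of the 3 values for 293 genes and the highest for 147, and A2 exceeded A3 for 351. Below 0 were 27 genes on A2, 36 on A3 and 106 on A10.

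The 10 genes with the highest difference had differences of 1.04 to 1.48 and included metabolic enzymes, carriers and proteins of the cell wall. CAR2, the ornithine aminotransferase of arginine breakdown, had log2 ratios of 0.84 on A2, 0.44 on A3 and 2.23 on A10, against -0.64 on A9, -0.10 on A13, -0.50 on A14 and -0.03 on WT1. Its sets did not overlap, with means of 1.17 ± 0.94 (SD, n = 3) and -0.32 ± 0.30 (SD, n = 4), and A10 stood far above A2 and A3. DIC1, the mitochondrial dicarboxylate carrier, read 0.57, 0.55 and 1.05 on A2, A3 and A10, against -1.36 on A9, -0.75 on A13, -0.01 on A14 and -0.29 on WT1. Part of its difference of 1.32 came from low values in the comparison set, in A9 above all.

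Of these 10, 4 encode proteins of the cell wall or cell surface. FKS1, which encodes a catalytic subunit of the glucan synthase that builds the cell wall, had log2 ratios of 1.24, 1.05 and 1.93 on A2, A3 and A10 against 0.29, -0.01, 0.66 and 0.01 on A9, A13, A14 and WT1. NCW2, a cell wall mannoprotein, read 1.53, 1.33 and 1.92 against 0.51, 0.09, 0.62 and -0.09 in the same order. YPS1, a surface aspartic protease, read 0.94, 1.03 and 2.20 against 0.21, 0.16, 0.20 and -0.07. In all 3 genes A10 was the highest array and no comparison array reached the set. CTS1, the endochitinase that separates daughter from mother cells, was at 1.34, 1.38 and 2.12 on A2, A3 and A10, while A14 came closest among the others at 1.1.

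The remaining 4 of the highest 10 were YLR179C, MMP1, ALT1 and THI7. YLR179C, whose role is not given here, had the smallest spread over the 3 strains, with 1.23, 1.19 and 1.32 on A2, A3 and A10 (mean 1.25 ± 0.07, SD, n = 3) against -0.38 to 0.30 elsewhere. MMP1, a permease for S-methylmethionine, was also even at 0.83, 0.76 and 0.95, but its comparison arrays ran from -1.37 on A14 to 0.60 on A13. ALT1, a mitochondrial alanine transaminase, stood at 0.78, 0.66 and 1.87 against -0.18 to 0.10. THI7, the thiamine transporter, stood apart from these in that A10 was lowest, with 1.03 on A2, 0.92 on A3 and 0.42 on A10, against -0.83 to 0.06.

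**Figure D3:**
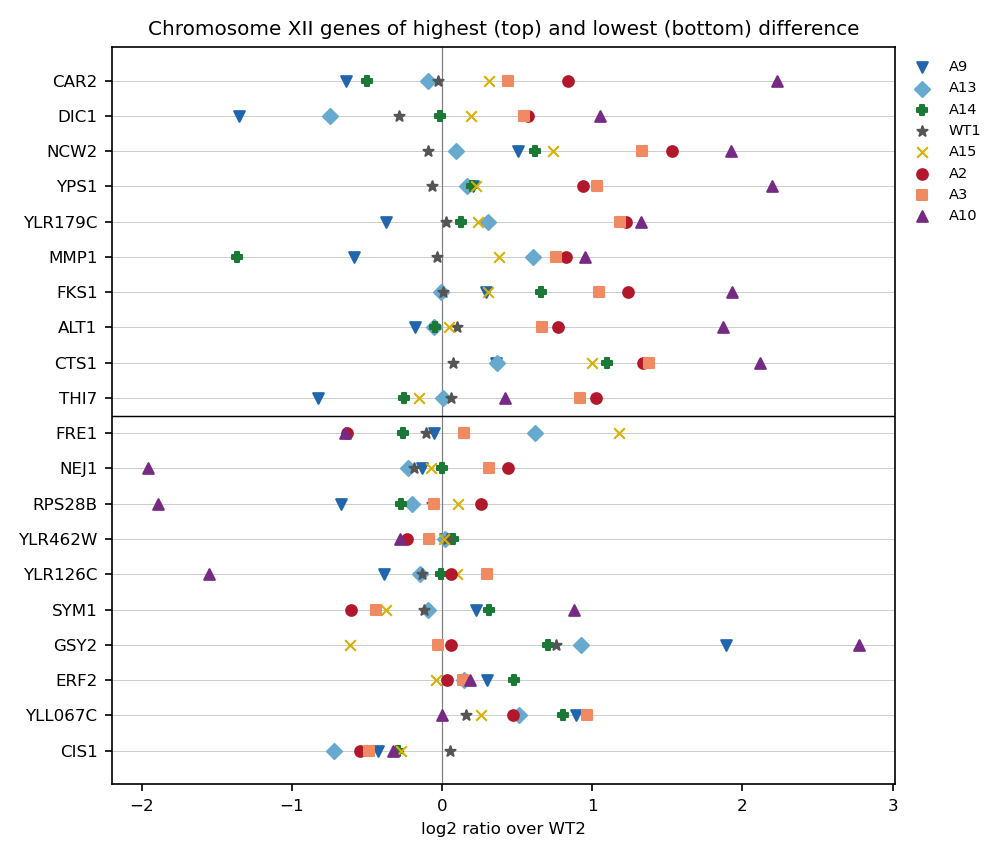
Log2 ratio over WT2 (x axis) on each array, marked by symbol and colour, for the 10 chromosome XII genes with the highest difference (above the line) and the 10 with the lowest (below it), among genes measured on all 7 arrays. For the upper 10, A2, A3 and A10 all lie to the right of A9, A13, A14 and WT1; among the lower 10, only YLR462W has all 3 to the left.

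At the other end, the 10 genes of lowest difference showed a few patterns over the arrays. FRE1, a ferric and cupric reductase of the plasma membrane, was the lowest at -0.43, with -0.63 on A2, 0.15 on A3 and -0.65 on A10 against -0.06, 0.62, -0.26 and -0.11 on A9, A13, A14 and WT1. Its sets overlapped, and the left-out A15 was far higher at 1.18. NEJ1, a factor of DNA end joining, and its neighbour RPS28B, a ribosomal protein of the small subunit, were low through A10 alone. NEJ1 read 0.44 on A2 and 0.32 on A3 but -1.96 on A10, and RPS28B 0.26, -0.06 and -1.89. On A2 and A3, NEJ1 lay above all 4 comparison arrays, which ran from -0.22 to 0.0021. YLR126C, a putative glutamine amidotransferase, was likewise low on A10, with 0.06 on A2, 0.30 on A3 and -1.55 on A10.

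In some other genes of low difference the comparison arrays or A10 were high. GSY2, a glycogen synthase, was at 0.06 on A2 and -0.02 on A3, at 2.78 on A10 and at 1.89, 0.92, 0.71 and 0.76 on A9, A13, A14 and WT1. SYM1, a protein of the mitochondrial inner membrane, was below 0 on A2 (-0.61) and A3 (-0.44) and at 0.88 on A10. ERF2, part of an enzyme that adds palmitate to Ras proteins, was near 0 on all 3, at 0.03, 0.14 and 0.19. CIS1, a dim gene, was below 0 on all 3, between -0.55 and -0.33. It was at -0.42 on A9, -0.72 on A13, -0.29 on A14 and 0.05 on WT1. YLL067C, a subtelomeric gene of a family with near-identical copies, varied from -0.0013 on A10 to 0.97 on A3, and its probe may read other copies. YLR462W lies next to the right end of the chromosome and was dim, with -0.24, -0.09 and -0.28 on A2, A3 and A10 against 0.02 to 0.07 elsewhere.

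NEJ1 is repressed in cells that carry both mating types, so markers of mating type are given beside it. The 7 haploid-specific genes (FAR1, FUS3, GPA1, HO, RME1, STE4 and STE18) had a median centred ratio of -3.40 on A10 and between -0.67 and 0.11 on the 7 other arrays. The 5 a-specific genes had a median of -4.67 on A10 and -4.29 on A9, against -0.99 on A2, -0.99 on A3 and -0.24 to 0.08 on A13, A14 and WT1. The 4 alpha-specific genes were at 5.02 on A9, 0.48 on A10 and between -0.12 and 0.07 on A2, A3, A13, A14 and WT1. On chromosome XII itself, SST2, which dampens the pheromone signal, stood at 0.81 on A2, 0.36 on A3 and -1.13 on A10. In RNA from whole cultures, fewer cells of a type and less RNA per cell cannot be told apart, and the part of these markers in the values of NEJ1 and its neighbour was not tested.

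Some chromosome XII genes set A10 far apart from A2 and A3. The 16 genes at the ends of the difference between A10 and the mean of A2 and A3 were picked after their values were seen. TMA10, a protein associated with ribosomes, had a log2 ratio of 4.26 on A10, -0.42 on A2 and -0.01 on A3. ATG39, a receptor for autophagy of the nuclear envelope, was at 3.01 on A10 and at -0.25 and -0.18 on A2 and A3. SDH2, a subunit of succinate dehydrogenase, read 2.11 on A10 against -0.19 and -0.20, and COX12, a subunit of cytochrome c oxidase, 1.67 against -0.11 and -0.26. In these 4 genes A10 was the highest of all 8 arrays, and both A2 and A3 were below 0 although the chromosome as a whole was raised there. In the opposite direction, the ribosome assembly helicase DRS1 was at 1.29 on A2 and 1.18 on A3 but at -0.33 on A10, and the assembly factor TSR2 at 1.08 and 1.03 but at -0.29.

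Lists of genes with a shared role divided in the same way. For 11 ribosome assembly factors on chromosome XII with full values, the median log2 ratio was 1.18 on A2, 0.999 on A3 and 0.10 on A10, with a median difference of 0.78, and 6 of the 11 had all 3 arrays above all 4 others, a share near the 60.5% of all chromosome XII genes. EMG1, a methyltransferase of the small subunit pathway, was the most even of those named here, with 1.29, 0.95 and 0.91 on A2, A3 and A10 against 0.04 to 0.26. DIP2 and UTP13, of the small subunit processome, read 1.29 and 1.19 on A2, 1.14 and 1.09 on A3 and 0.32 and 0.61 on A10. Of 46 assembly factors on other chromosomes, 28 had a centred difference above 0, with a median of 0.04. In all 3 arrays 1 lay higher and 0 lower, beside 5.95% and 3.96% of all genes elsewhere. Limma called 0, with 2 at an unadjusted p under 0.05.

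Against the full comparison set, genes for ribosomal proteins (symbols starting RPL, RPS or RPP) showed smaller values than the chromosome's median. The 17 on chromosome XII with full values had a median difference of 0.47, with median log2 ratios of 0.50 on A2, 0.26 on A3 and -0.17 on A10. Of the 17, 6 did not overlap, beside 60.5% of all chromosome XII genes. RPS0B was the highest at 0.82, with 0.86, 0.69 and 0.45 on A2, A3 and A10 against -0.26 to 0.08. RPL15A was at 0.01, 0.15 and -0.94, and its difference was 0.01. RPL38, a single-copy gene, read 0.39, -0.34 and -1.15, with comparison arrays from -0.96 to -0.11. Against A9 alone, the only comparison array in the same slide row, the median difference of the 17 was 0.70. That is above the chromosome's median in every alternative run, so the smaller values depend on the comparison arrays. Many ribosomal protein genes have near-identical copies whose probes may read both, so the value of a single copy is uncertain.

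Of the ribosomal protein genes of chromosome XII, 13 formed a pair with a copy elsewhere and had full values in both. The chromosome XII copies had a median difference of 0.50. Of these 13, 5 had all 3 arrays above all 4 others, beside 60.5% of all chromosome XII genes. The copies elsewhere had a median centred difference of -0.13, with 11 of 13 below 0. RPL8A, the partner of RPL8B, was the lowest of them, with centred ratios of -1.58, -1.35 and -1.25 on A2, A3 and A10 against -0.64, -0.26, -0.39 and -0.08 on A9, A13, A14 and WT1. RPL8B itself was at 0.77, 0.40 and 0.16, above all 4 comparison arrays. RPL8A did not pass the test (difference -1.05, adjusted p = 0.0969 by limma), and without A10 it did (-1.12, adjusted p = 0.0294). RPL15B (-0.57) and RPL22B (-0.43) were the other 2 partners with all 3 arrays below all 4 others. The remaining ribosomal protein genes elsewhere had a median of -0.08, and most of them, 74, were below 0 too. That order was found for 0 of them, beside 3.96% of all genes elsewhere. Within the slide row of A9 the median over the partner copies was 0.03 in place of -0.13, and without WT1 it was -0.06.

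Transcription regulators encoded on chromosome XII had values close to the chromosome's median. For 14 of them the median difference was 0.60, between 0.25 and 0.77. Of the 14, 10 did not overlap, beside 60.5% of all chromosome XII genes. RGR1, a subunit of Mediator, read 0.91, 0.79 and 0.82 on A2, A3 and A10 against -0.06 to 0.25. SFP1, an activator of ribosome assembly genes, read 0.82, 0.83 and 0.85 against -0.03 to 0.19, the smallest spread over the 3 strains among the 14. LEU3, the activator of leucine synthesis genes, read 0.85, 0.63 and 0.50 against -0.14 to -0.06. PPR1, which activates pyrimidine synthesis genes, read 1.12, 0.85 and 0.49 against 0.05 to 0.12. IFH1, a coactivator of ribosomal protein genes, overlapped through A10 at -0.05, and SWI6, a cofactor of genes of the start of the cell cycle, cleared the others only narrowly on A10 at 0.06 against a highest value of 0.02.

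Known targets of these regulators elsewhere had median centred differences between 0.01 and 0.29. Of 8 targets of Leu3, 7 were above 0 with a median of 0.29, and LEU4, the first enzyme of leucine synthesis, had all 3 arrays above the others at 0.21, 0.31 and 1.61 against -0.21 to 0.17. WT1 alone had a Leu3 target median of 0.31, above A2 (0.22), A3 (-0.25) and A10 (0.19). The medians were 0.01 over 10 targets of Hap1, 0.02 over 13 of the Swi6 complexes, 0.04 over 4 of Rfx1 and 0.04 over 3 of Ppr1. The Hap1 targets had median centred ratios of -0.21 on A2, -0.27 on A3 and 0.69 on A10. Without A10 the median differences were -0.25 for Hap1, -0.22 for Rfx1 and -0.23 for Ppr1. Of the 10 Hap1 targets, 2 were then called lower by limma, CYC1 and CYT1, beside 1.72% of all genes elsewhere. CYC1 is also one of the respiratory chain subunits given below, of which 19 of 33 were called lower in that fit. With all 7 arrays, none of these 5 groups of targets held a gene called by limma, the unadjusted p was under 0.05 for 0 of their genes, and over all genes elsewhere the median centred difference was -0.0025.

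Other groups on chromosome XII filled in the range. The 4 asparaginase genes ASP3-1 to ASP3-4, which lie as repeats beside the rDNA, had differences of 0.74 to 0.83 with no overlap, and their near-identical sequences mean that the 4 probes may read 1 pool. On A15 the 4 genes were at 0.77 to 0.85, and against A9 alone their median difference was 0.46. Among chaperones, the cytosolic SSA2 was at 1.42, 0.95 and 0.71 on A2, A3 and A10 and the mitochondrial HSP60 at 0.38, 0.30 and 0.54, both above all comparison arrays, whereas HSP104 and CPR6 overlapped. The 4 general stress genes HSP104, UBI4, TFS1 and GSY2 had a median of 0.09 on A2, -0.02 on A3 and 2.11 on A10. Their median difference of 0.25 turned to -0.21 without A10 and to -0.25 against A9 alone. The condensin and cohesin-like genes SMC4, YCS4 and SMC6 did not overlap, with differences of 0.45 to 0.66, and the helicase subunit MCM5 overlapped through A10. ILV5 of branched amino acid synthesis was at 1.47, 0.94 and 1.57 against 0.19 to 0.61.

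**Figure D4:**
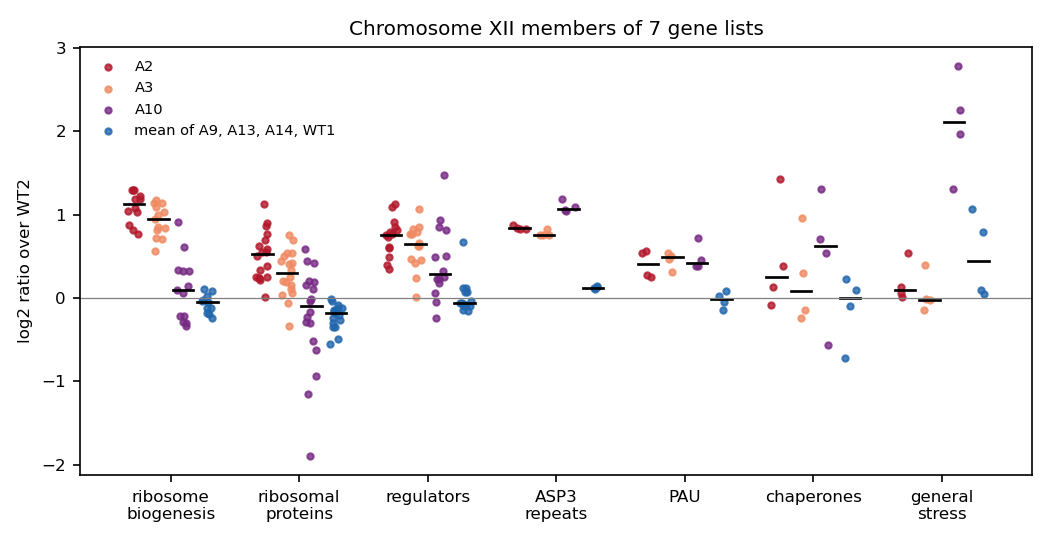
Log2 ratio over WT2 (y axis) of the chromosome XII members of 7 gene lists (x axis), with 1 point per gene for A2, A3, A10 and the mean of A9, A13, A14 and WT1, and a black bar at the median. The assembly factors are highest on A2 and A3, and the general stress genes are highest on A10 with a median of 2.11.

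On the other chromosomes, each log2 ratio was first reduced by the median of its chromosome on that array, which removes the raised level of a whole chromosome, and the 3 arrays were compared with the 4 by limma with Benjamini-Hochberg adjustment over all 6126 genes, a table that includes the chromosome XII genes. Of 5594 genes elsewhere, 5 fell (0.0894%) and 0 rose (0%) at an adjusted p under 0.05. At an unadjusted p under 0.05 there were 427 genes, 240 higher and 187 lower, and 5% of the genes tested is 280. All 3 arrays lay above all 4 others for 330 of 5549 genes with full values (5.95%) and below for 220 (3.96%).

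Of the 5 that fell, 4 belong to mating. FIG1, a membrane protein of mating cells, had centred ratios of -2.01, -2.32 and -1.57 on A2, A3 and A10 against 0.38, 0.70, 0.50 and 0.18 on A9, A13, A14 and WT1. Its difference was -2.41 ± 0.20 (SE) with an adjusted p of 0.00861 by limma, and no array of 1 set reached the other. PRM6, a potassium transport protein of the pheromone response, read -1.11, -1.21 and -1.15 against 0.01, 0.25, 0.26 and 0.29 (difference -1.36 ± 0.10 SE, adjusted p = 0.00861 by limma). Its red signal was well above background on 2 of the 3 arrays, so its level there is partly a bound, and with the scanner software's own signals the difference was -3.99. AGA1, the anchor of the a-agglutinin of mating cells, read -1.87, -1.89 and -2.47 against -0.33, 0.08, 0.21 and 0.32 (difference -2.15, adjusted p = 0.0158 by limma). PRM1, a protein of cell fusion, read -1.23, -1.30 and -1.77 against 0.18, 0.49, 0.32 and 0.05 (difference -1.69, adjusted p = 0.0158 by limma).

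The remaining gene that fell, YIL082W-A, is the polyprotein gene of a Ty3 retrotransposon, an element that answers to pheromone. Its centred ratios were -0.62, -0.90 and -0.95 on A2, A3 and A10 against 0.74, 1.02, 0.57 and 0.40 (difference -1.51, adjusted p = 0.0284 by limma). The overlapping frame YIL082W gave -1.40 and did not pass (adjusted p = 0.0641 by limma), and the 2 probes may read the same RNA. A further pair of mating genes came close, PRM2 at -1.31 (adjusted p = 0.0641) and FIG2 at -1.62 (adjusted p = 0.0875), both by limma. A list of 18 genes of pheromone response and cell fusion was put together after these values were seen and includes called genes. Of the 18, 17 were below 0 and 11 had all 3 arrays below all 4 others, beside 3.96% of all genes elsewhere. Limma called 4 of them, beside 0.0894% of all genes elsewhere called lower.

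Array A15, with chromosome XII only slightly raised, gave values like those of the 3 strains for all 5 genes. It read -1.73 for FIG1, -0.95 for PRM6, -2.35 for AGA1, -1.24 for PRM1 and -0.84 for YIL082W-A, below every comparison array. With A15 counted among the comparison arrays limma called 0 genes elsewhere, with 366 at an unadjusted p under 0.05, and with A15 counted among the raised arrays it called 8, all 5 included. The a-specific STE2, the receptor for alpha-factor, was at -0.99 on A2, -0.99 on A3, -6.30 on A10, -1.78 on A15 and -6.08 on A9, against -0.28 to 0.09 on A13, A14 and WT1. On A9, whose a-specific genes were about as low as on A10 and whose alpha-specific genes were at 5.02, FIG1 and PRM1 stayed above 0, at 0.38 and 0.18. None of the 16 markers of mating type was called (adjusted p of 0.599 to 0.92 by limma), and their part in the result was not tested.

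The labels name no slide row or batch, and the row was read only from the array position in the names of the deposited scans. By that position, A2, A3, A10 and A9 lay in the first of 2 rows and A13, A14 and WT1 in the second. Within the first row, against A9 alone, the differences were -2.34 for FIG1, -1.17 for PRM6, -1.75 for AGA1, -1.61 for PRM1 and -1.56 for YIL082W-A, and limma called 0, with 217 genes elsewhere at an unadjusted p under 0.05. With the row as a block, where the differences again rest on A9 alone, limma called 10 lower and 2 higher, and of the 5 genes only PRM6 stayed called (adjusted p = 0.0461 by limma). Of those 12, 7 are genes of the mating type or of alpha cells, MF(ALPHA)1 at -6.39 and SAG1 at -3.56 among them. The 5 calls were also lost when A2, A3, A13 or A14 was left out, which gave 0 calls each by limma, with 275 to 395 genes at an unadjusted p under 0.05. In these 4 fits the difference of FIG1 lay between -2.39 and -2.23 and that of PRM6 between -1.38 and -1.33, with adjusted p of 0.0533 to 0.0785 by limma. Without WT1 there were 2 calls and without A9 3, all lower, and without A10 27 higher (0.483%) and 96 lower (1.72%), all 5 included.

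**Figure D5:**
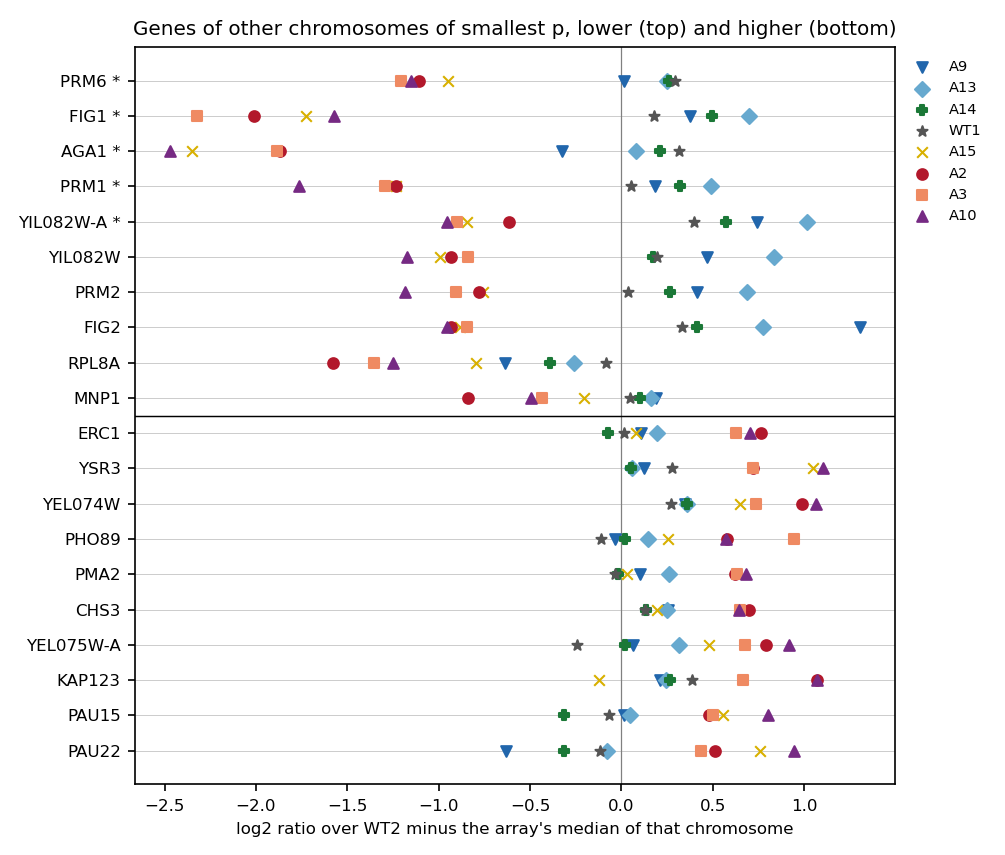
Centred log2 ratio (x axis, log2 ratio over WT2 minus the array's median of that chromosome) on each array for the 10 genes of other chromosomes with the smallest p among those lower in A2, A3 and A10 (above the line) and the 10 among those higher (below it). A star marks the 5 genes called by limma. A15, marked by a cross, lies with A2, A3 and A10 for the genes of the pheromone response and among the comparison arrays for ERC1, PMA2 and CHS3.

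With all 7 arrays no gene elsewhere was called higher. The 10 of smallest p whose arrays did not overlap had differences of 0.47 to 0.92 and adjusted p of 0.164 to 0.193 by limma. ERC1, a transporter linked to S-adenosylmethionine, read 0.76, 0.63 and 0.71 on A2, A3 and A10 against 0.11, 0.19, -0.07 and 0.01 on A9, A13, A14 and WT1. CHS3, a chitin synthase of the cell wall, read 0.70, 0.65 and 0.64 against 0.13 to 0.25. KAP123, an importer of ribosomal proteins into the nucleus, read 1.07, 0.67 and 1.07 against 0.21 to 0.38, and PMA2, a plasma membrane proton pump, 0.62, 0.63 and 0.68 against -0.03 to 0.26. In none of these 4 genes did a comparison array reach the 3 strains on the centred scale. Before centring, ERC1 and KAP123 still did not overlap, but PMA2 and CHS3 did. PMA2 was at 0.58, 0.59 and 0.53 on A2, A3 and A10, with 0.66 on A9 and 0.74 on A14. CHS3 was at 0.51 on A10 and 0.90 on A9. PHO89, PAU15 and PAU22 among the 10 also overlapped before centring. Without A10, 6 of the 10 were called higher, ERC1, YSR3, PHO89, CHS3, YEL074W and PMA2, with adjusted p of 0.0364 to 0.0472 by limma. Of all genes elsewhere, 0.483% were called higher in that fit, and these 10 had been picked by small p.

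PAU15 and PAU22 among these 10 belong to the seripauperins, a large family of near-identical subtelomeric genes. All 20 family members elsewhere had a centred difference above 0, with a median of 0.39, 10 of the 20 did not overlap, beside 5.95% of all genes elsewhere, and 0 were called by limma, with 11 at an unadjusted p under 0.05. The 4 members on chromosome XII had differences of 0.35 to 0.66. The family's median centred ratio was 0.40 on A2, 0.37 on A3, 0.61 on A10 and 0.47 on A15, against 0.03 on A9, -0.05 on A13, 0.27 on A14 and -0.12 on WT1. Their probes may read 1 another's RNA, so the 20 values are not 20 independent measurements.

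Of 48 genes of amino acid synthesis, 38 had a centred difference above 0, with a median of 0.15, 6 without overlap (beside 5.95% of all genes elsewhere) and 0 called by limma, with 6 at an unadjusted p under 0.05. TRP5, the last enzyme of tryptophan synthesis, read 0.69, 0.66 and 0.90 on A2, A3 and A10 against 0.01 to 0.34, and TRP4 of the same pathway 0.43, 0.37 and 0.50 against -0.27 to 0.25. ILV6, a regulatory subunit of branched amino acid synthesis, read 0.69, 0.56 and 1.34 against 0.26 to 0.37. The median of the 48 was 0.38 against A9 alone, 0.04 with A2 and A3 against A13 and WT1 and 0.24 without WT1. The 65 genes of the mitochondrial ribosome elsewhere had medians of -0.34 on A2, -0.26 on A3 and 0.29 on A10, with 8 of 65 differences above 0, 4 with all 3 arrays below (beside 3.96% of all genes elsewhere) and 0 called by limma, with 5 at an unadjusted p under 0.05. Their median difference of -0.13 was -0.02 without A2, -0.06 without A3 and -0.32 without A10. Without A10, limma called 7 of the 65 lower, beside 1.72% of all genes elsewhere, and 0 differences were above 0. MNP1, also of that ribosome, was at -0.84, -0.44 and -0.50 against 0.05 to 0.19 and did not pass with all 7 arrays (adjusted p = 0.183 by limma), and without A10 it did (adjusted p = 0.0364 by limma).

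A10 stood against A2 and A3 in stress and respiration on the other chromosomes as it did on chromosome XII. The 26 general stress genes elsewhere had median centred ratios of -0.45 on A2, -0.34 on A3 and 1.68 on A10, with 1.02 on A9, 0.42 on A13, 0.34 on A14, 0.05 on WT1 and -0.51 on A15. HSP12, a small membrane-protecting stress protein, read -0.48 on A2, -0.07 on A3 and 4.89 on A10. For 32 subunits of the respiratory chain and ATP synthase, a list put together after the values were seen, the medians were -0.70, -0.62 and 1.04 on A2, A3 and A10 and between -0.01 and 0.36 on A9, A13, A14 and WT1. With A10 left out, limma called 19 of 33 such subunits lower and 0 higher, beside 1.72% and 0.483% of all genes elsewhere. Among the 19 were CYC1 (cytochrome c, difference -1.10, adjusted p = 0.00812 by limma) and COX5B (-1.31, adjusted p = 0.00987 by limma). Without A10 the 47 ribosome assembly factors elsewhere had 46 above 0, with a median of 0.30. Limma called 2 of the 47 higher, DBP3 and SPB1, beside 0.483% of all genes elsewhere. These calls rest on A2 and A3, which also share a raised chromosome II. Chromosome II was raised on A9 and A15 too, at medians of 0.64 and 0.49, and stood at 0.28 on A13. The respiratory subunits had medians of 0.36 on A9, -0.34 on A15 and 0.03 on A13. A9 also had chromosomes XIII and XVI raised, and A15 chromosomes X and XI. The part of chromosome II in these values was not tested.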

How the data were processed

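Total RNA of 8 samples was measured on 2-colour Agilent arrays. Per the file headers, the scans were read with Feature Extraction 10.5.1.1. The deposited median spot and background intensity of each colour, not normalized, were used here. The files also hold processed signals, from which background and dye bias had been removed, and the log10 ratio of red over green, per the file headers. A deposited table of log2 ratios matched that log10 ratio on the log2 scale within 5e-04, with column medians of -0.014 to 0. Any step beyond these is not given in the sources used here.

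In limma 3.58.1 (R 4.3.3), background was corrected by normexp with offset 50, ratios were normalized by loess within each array with weight 0 for 536 control spots, flagged spots were dropped, saturated ones kept, and the 2 spots of a gene averaged. Median red signals lay between 539 and 1532 and green between 364 and 614. Over 92% of genes were well above background in each colour. The number of arrays limits the precision. Genes well above background in either colour on at least 2 arrays were kept: 6126 of 6256, of which 53 lacked a value on some of the 7 arrays and were fitted on the rest. RefSeq's R64 table named 5756 genes, and 500 kept the file's name. It was used for names only, since the array follows an older build, and no sequences are printed.

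The fit (lmFit, eBayes, two-sided, Benjamini-Hochberg over the whole table, threshold 0.05) took 7 arrays and was checked on simulated data. No dyes were swapped, and a dye effect or a deviation of WT2 shared by all arrays cancels in the difference. Named genes were the 10 highest and 10 lowest chromosome XII differences, those with all 3 arrays below, regulators on chromosome XII, genes called elsewhere or the 10 of smallest p without overlap in each direction, markers, and up to 4 members per list; further list members and the A10 extremes were named after their values were seen. The arrays, members and lists were chosen with earlier results of these data known. Alternatives changed the signals, normalization, filter, arrays, slide row and centring. The targets of 1 further regulator are not reported here.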

Additional observations from a re-analysis of the deposited data

Results flagged for a closer look

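In the comparison set of 4 arrays, 71 results were screened for an array far from the other 3 by Dixon's ratio, and 12 stood out, where chance gives about 1 in 20. Of these, 10 lay on A9, and 9 of the 10 were mating-type markers. The centred ratio of A9 was -3.42 for MFA1, -6.08 for STE2, -5.37 for BAR1 and -4.29 for STE6, genes of a cells. It was 5.26 for MF(ALPHA)2, 6.60 for MF(ALPHA)1 and 3.69 for SAG1, genes of alpha cells, and -1.30 for HO and -0.77 for RME1. For PRM6, which fell in the 3 strains with raised chromosome XII, A9 was the lowest comparison array at 0.013. The other 2 lay on WT1, with a log2 ratio of -0.068 for YPS1 and a centred ratio of 0.27 for YEL074W.

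Array A15 took no part in the comparison. Its chromosome XII median of 0.10 was above that of WT1 and of the other comparison arrays. Its centred ratios of -0.95 for PRM6, -1.73 for FIG1, -2.35 for AGA1, -1.24 for PRM1 and -0.84 for YIL082W-A lay below all 4 comparison arrays.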

How the results depend on the processing

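Over the alternatives run, the median difference of chromosome XII genes lay between 0.46 and 0.65 and kept its direction; it left the spread between arrays only with A15 counted as raised (0.46, with 178 genes not overlapping in place of 317). Leaving out 1 array gave medians of 0.50 to 0.63 and counts of 325 to 415. The number of genes elsewhere called lower was 5, and it was 2 with each array's median in place of loess, 0 with A15 among the comparison arrays, 8 with A15 among the raised arrays, 0 in the first slide row alone, 10 with the slide row as a block (2 higher), 8 without chromosome centring and 3 with raised chromosomes set to missing. A2 and A3 alone against A13 and WT1, a choice made after the data were seen, gave 279 lower and 118 higher. Leaving out 1 array gave 0 to 96 lower and 0 to 27 higher, the highest without A10. None of the results changed sign while called. Each strain has 1 array and all carry the replicate number 1. No paired analysis was possible because the groups compared share fewer than 2 replicate numbers. The cause of these changes was not tested; leaving out an array also leaves fewer samples. Dim genes have ratios pulled towards 0 by the offset: the difference of PRM6 was -1.36, and -3.99 with the processed signals.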

Other observations

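Of 10 histone genes, a list put together after the values were seen, 9 had a centred difference below 0, with a median of -0.50, 5 had all 3 arrays below all 4 others (beside 3.96% of all genes elsewhere), and 0 were called by limma, with 7 at an unadjusted p under 0.05. HHT1, a histone H3 gene, read -0.79, -0.39 and -0.79 on A2, A3 and A10 against -0.10 to 0.27 on the comparison arrays, and HTA2, a histone H2A gene, -0.67, -0.41 and -0.33 against -0.09 to 0.44. HHF1 and HTB1 overlapped through A10, and without A10 limma called both lower, with adjusted p of 0.0458 and 0.0313. Of all genes elsewhere, 1.72% were called lower in that fit. The variant histone gene HTZ1 had a difference of 0.05.

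Among septin genes, which build the ring at the bud neck, CDC3 on chromosome XII had a difference of 0.19 with overlapping arrays, and of 4 elsewhere 3 had a centred difference above 0, with a median of 0.04 and 0 called by limma. CDC11 had a difference of 0.18 with all 3 arrays above the others, and CDC10 had a centred difference of -0.41 with all 3 arrays below the others (adjusted p = 0.276 by limma). The proteasome subunit RPN13 on chromosome XII was at 0.74, 0.56 and 0.36 on A2, A3 and A10 against -0.35 to -0.08. The 29 other subunits elsewhere had a median centred difference of -0.11. Of these, 3 lay above all comparison arrays and 3 below, beside 5.95% and 3.96% of all genes elsewhere. Limma called 0, with 1 at an unadjusted p under 0.05.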
